A study of Mus musculus with 4 samples.

Results

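The transcripts described here are those of 10 secreted growth and angiogenic factors, Pdgfb, Pdgfa, Vegfa, Pgf, Tgfb1, Hbegf, Areg, Igf1, Osm and Inhba, among the 32285 genes counted. The set is a list of gene names without a threshold on any value, drawn up with earlier results of these data known. Viable CD45+ leukocytes had been sorted from EO771 tumors, which grow from a C57BL/6-derived mouse mammary carcinoma line injected into the mammary fat pad of C57BL/6 mice, and sequenced as single cells from the 3′ end of their polyA RNA. Tumors came from 2 Csf1r fl/fl mice, the controls, and from 2 Lyve1Cre Csf1r fl/fl mice, in which Cre under the control of Lyve1 deletes the floxed Csf1r gene. Both genotypes carry the floxed alleles, and Lyve1 is also expressed by lymphatic endothelium, where the same Cre is active. Each of 2 Chromium runs held 1 tumor of each genotype, marked by different hashtag antibodies. From the cells kept, the study had left out clusters of lymphocytes specific to the Lyve1Cre Csf1r fl/fl tumor of run 2. Cells of every tumor in these clusters were removed, so the lymphoid gates of all tumors here lack them. Mouse ages are not given in the sources used here.

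Platelet-derived growth factors, VEGF-A and placental growth factor signal through receptor tyrosine kinases on stromal and endothelial cells, amphiregulin and HB-EGF are membrane-anchored ligands of the EGF receptor that are released by shedding, and IGF-1 signals through its own receptor kinase. TGF-beta 1 and activin A, a dimer of the inhibin beta A chain encoded by Inhba, act through receptor serine kinases and SMAD proteins, and oncostatin M, encoded by Osm, acts through the shared gp130 receptor chain of the IL-6 family. In tumors these factors are known as products of myeloid cells, T cells, stroma and the tumor cells themselves, where they act on vessels, matrix and epithelium.

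Of 53361 barcodes, the 28429 cells that the study kept were used. The Csf1r fl/fl tumors gave 8699 (run 1) and 7786 (run 2) cells and those of Lyve1Cre Csf1r fl/fl mice 7173 and 4771, with medians of 3721 to 4657 unique molecular identifiers (UMIs, each standing for 1 captured RNA molecule) per cell. Cells were placed in 14 gates by panels of lineage markers that hold none of the 10 genes, and the gates took 85.0% of the kept cells. Another 2924 cells with markers of several lineages were left out, 74.0% of which Scrublet called doublets, and 200 barcodes, 60 of them kept, occurred in both runs. Over all kept cells, Csf1r stood at 0.898 and 0.964 UMIs per 10000 in Csf1r fl/fl tumors and at 0.427 and 0.454 in Lyve1Cre Csf1r fl/fl tumors, and in C1q macrophages at 1.76 and 2.27 against 1.37 and 1.44. It was also lower in monocytes, at 2.34 and 2.33 against 1.5 and 1.43, and in neutrophils, at 0.892 and 0.683 against 0.401 and 0.548. In the CD4 T and the stromal or tumor gates it was not lower in both runs. These 3′ counts do not read the deletion itself. Lyve1 had 20 to 43 UMIs per tumor over all kept cells and 0 in monocytes. The stromal or tumor gate held 34, 6, 32 and 37 of these (Csf1r fl/fl run 1 and run 2, then Lyve1Cre Csf1r fl/fl run 1 and run 2). In the same order C1q macrophages held 2, 1, 0 and 0 and Arg1 macrophages 0, 2, 1 and 0. C1q macrophages numbered 508 and 296 in Csf1r fl/fl and 163 and 88 in Lyve1Cre Csf1r fl/fl tumors. Of the 85 genes in the panels of single gates, 73 had their highest mean in their own gate (4 of 8 for monocytes and 4 of 7 for cDC2), with S100a8 at 537 and S100a9 at 711 UMIs per 10000 in neutrophils and at or below 3.99 elsewhere. The same genes had placed the cells. Cells outside the neutrophil gate with S100a8 and S100a9 together at 100 or more UMIs per 10000 had been put in no gate. These marker values therefore describe the gates and do not test them. The stromal or tumor gate, which CD45 sorting should have removed, held 166 cells with Sparc at 7.06, Col3a1 at 2.23 and Krt8 at 1.59 and a median of 48872 UMIs per cell, and Scrublet called 39.8% of them doublets. Of the 9 genes of its panel, 7 were highest in this gate, Krt19 among them at 0.00193, whereas the epithelial Epcam, at 0.0523, was below pDCs (0.182) and the endothelial Pecam1, at 0.0245, was the lowest of the 14 gates. The gate named T unresolved took T cells that met the rule of no subset. Cells with a Cd8 gene together with Foxp3, Cd4 or Cd40lg fell in it as well. It expressed Ikzf2 at 11.6, against 15.8 in Tregs, and Foxp3 at 0.518, against 4.29. Cd8a stood at 0.739 and Cd8b1 at 0.871 there, against 5.38 and 5.33 in CD8 T cells. By the gate rules Tregs had to hold Foxp3 and neither Cd8 gene, so every T unresolved cell with Foxp3 also held a Cd8 gene. T cells without Foxp3 but with several Treg markers were barred from the CD4 T gate. These Ikzf2 and Foxp3 values therefore follow in part from the rules.

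Sequence upstream of the transcription start was available from RefSeq (GRCm38.p6) for 7 of the 10 genes, and the windows shown are those of Vegfa, Inhba and Areg, the 3 genes of the set that rose most in Arg1 against C1q macrophages in the comparison below. Each window holds 250 bases before the start and 50 after it, written 5′ to 3′ on the strand of the gene, and capitals mark the motifs that were found. Vegfa lies at chr17:46032328-46032627 on the minus strand, Inhba at chr13:16011601-16011900 on the plus strand and Areg at chr5:91139349-91139648 on the plus strand.
Vegfa: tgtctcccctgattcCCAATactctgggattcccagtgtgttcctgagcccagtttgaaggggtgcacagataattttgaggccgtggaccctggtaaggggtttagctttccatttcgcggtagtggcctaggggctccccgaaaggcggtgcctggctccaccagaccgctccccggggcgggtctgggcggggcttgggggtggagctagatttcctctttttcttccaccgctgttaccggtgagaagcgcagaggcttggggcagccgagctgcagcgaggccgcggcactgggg
Inhba: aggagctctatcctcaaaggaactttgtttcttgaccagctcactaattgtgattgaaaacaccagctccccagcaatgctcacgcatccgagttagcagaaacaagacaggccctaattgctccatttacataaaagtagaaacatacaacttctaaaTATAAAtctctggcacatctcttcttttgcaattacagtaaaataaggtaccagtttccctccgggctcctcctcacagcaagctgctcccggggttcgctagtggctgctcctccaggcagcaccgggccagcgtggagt
Areg: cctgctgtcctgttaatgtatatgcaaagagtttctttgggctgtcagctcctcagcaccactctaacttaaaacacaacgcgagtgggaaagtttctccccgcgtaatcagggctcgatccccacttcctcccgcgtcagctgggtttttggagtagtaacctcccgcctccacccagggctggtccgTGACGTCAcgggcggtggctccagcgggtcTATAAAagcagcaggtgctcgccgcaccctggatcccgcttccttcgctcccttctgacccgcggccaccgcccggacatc
Motifs were searched on both strands. The cyclic AMP response element, TGACGTCA, which 1.79% of 32851 windows hold, stood at bases 190 to 197 of the Areg window, counted from its 5′ end. The TATA box, TATAAA, which 13.6% hold, stood at bases 220 to 225 of the Areg window and 160 to 165 of the Inhba window. The CCAAT box, spelled as its name, which 37.4% hold, stood at bases 16 to 20 of the Vegfa window. The core of the hypoxia response element, ACGTG, which 19.6% hold, was in none of the 3 windows and was found on the opposite strand of a second Vegfa window at chr17:46025114-46025413. That second window lies inside the Vegfa gene, which spans chr17:46016993-46032369, and not upstream of the gene. The AP-1 site, TGANTCA, which 7.81% hold, was in none of the 3. Such matches describe the letters of these windows only.

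Levels are given as UMIs of the gene per 10000 UMIs of the gate in a tumor. The 4 values of a gene stand in the order Csf1r fl/fl run 1, Csf1r fl/fl run 2, Lyve1Cre Csf1r fl/fl run 1 and Lyve1Cre Csf1r fl/fl run 2, and means are over the 4 tumors (± SD, n = 4). The counts come from 3′ ends, and levels are compared between gates for 1 gene at a time. The plot of levels by gate and tumor shows Vegfa, Pgf and Inhba with their highest means in Arg1 macrophages, Pdgfb and Igf1 in C1q macrophages, Osm and Hbegf in neutrophils, Tgfb1 in monocytes, Areg in T cells and Pdgfa in the stromal or tumor gate.

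**Figure D1:**
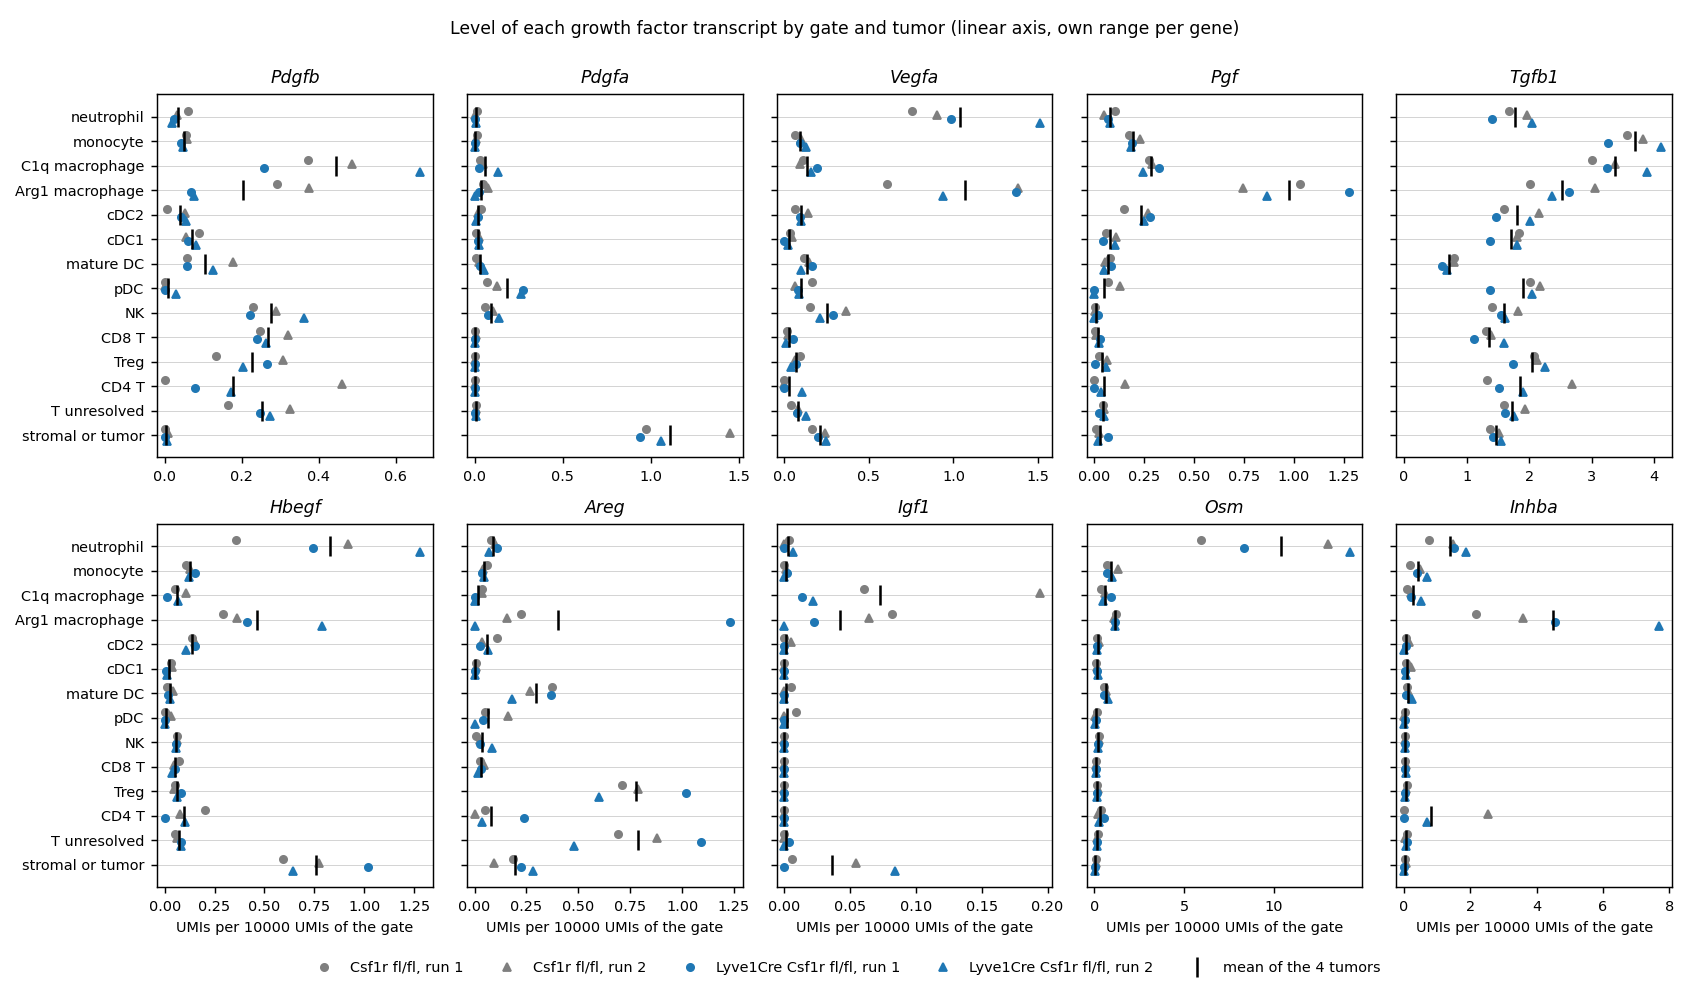
Level of each of the 10 transcripts (UMIs per 10000 UMIs of the gate, linear axis with its own range for each gene) in the 14 gates. Gray points are Csf1r fl/fl tumors and blue points Lyve1Cre Csf1r fl/fl tumors, circles run 1 and triangles run 2, and black bars the mean of the 4 tumors; Osm in neutrophils lay between 5.94 and 14.2, above every other gate.

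Among the angiogenic factors of the VEGF family, Vegfa, the main driver of vessel growth, was highest in Arg1 macrophages and neutrophils. It stood at 0.606, 1.38, 1.37 and 0.939 in Arg1 macrophages (1.07 ± 0.373). In neutrophils it stood at 0.757, 0.905, 0.984 and 1.51 (1.04 ± 0.327). These ranges overlapped, so the order of both gates was not settled, and every value in them was above the highest NK cell value of 0.364. NK cells followed at 0.253 ± 0.0927 and, after the stromal or tumor gate, C1q macrophages at 0.136 ± 0.0449, while CD8 T cells had the lowest mean, 0.0245 ± 0.0180. Vegfa was found in 16.5% of neutrophils, 24.3% of Arg1 macrophages and 1.02% of CD8 T cells, with median depths of 2107, 3896 and 4775 UMIs. After thinning to 1500 UMIs the shares were 11.1%, 13.4% and 0.361%. Cells below 1500 UMIs were left out of the thinned shares. These cover 4612 of 5974 neutrophils, 417 of 470 Arg1 macrophages and 2771 of 2856 CD8 T cells.

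Pgf, a ligand of the VEGF receptor Flt1, was highest in Arg1 macrophages, at 1.03, 0.748, 1.28 and 0.864 (0.979 ± 0.228). All 4 tumors were above the highest value of C1q macrophages, which stood at 0.273, 0.291, 0.326 and 0.243 (0.283 ± 0.0348). The range of cDC2 (0.237 ± 0.0596) overlapped that of C1q macrophages and that of monocytes (0.194 ± 0.0243), while the latter pair did not overlap. NK cells had 6 Pgf UMIs in all, a mean of 0.00652.

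Pdgfb, the chain of PDGF-BB that recruits pericytes, stood at 0.371, 0.485, 0.258 and 0.663 in C1q macrophages (0.444 ± 0.173). NK cells (0.275 ± 0.0646), CD8 T cells (0.267 ± 0.0362), the T unresolved gate (0.252 ± 0.0668) and Tregs (0.226 ± 0.0753) followed. Each of these ranges overlapped that of the C1q macrophages, but within tumors C1q macrophages were higher than NK cells, CD8 T cells and the T unresolved gate in 4 of 4 and higher than Tregs in 3 of 4. Monocytes, at 0.0504 ± 0.00741, and neutrophils, at 0.0338 ± 0.0192, were lower in every tumor than C1q macrophages. CD8 T cells held 25.4% of the gated Pdgfb UMIs on average over the tumors, NK cells 15.4%, the T unresolved gate 13.6% and C1q macrophages 13.3%.

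Pdgfa, the other PDGF chain of the set, was a transcript of the stromal or tumor gate, at 0.976, 1.45, 0.942 and 1.06 (1.11 ± 0.236). No leukocyte gate reached these values, the highest being pDCs at 0.0692, 0.130, 0.274 and 0.262 (0.184 ± 0.1) and NK cells at 0.0955 ± 0.0332. The stromal or tumor gate held 78.8% ± 5.03 (SD, n = 4) of the gated Pdgfa UMIs. Its 166 cells are a small share of those gated, but with a median of 48872 UMIs per cell their share of all UMIs is larger. Neutrophils held 12 Pdgfa UMIs in 5974 cells.

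Of the EGF receptor ligands, Hbegf was highest in neutrophils, at 0.359, 0.921, 0.741 and 1.28 (0.826 ± 0.385). The stromal or tumor gate followed at 0.592, 0.773, 1.02 and 0.644 (0.758 ± 0.192) and Arg1 macrophages at 0.292, 0.361, 0.410 and 0.789 (0.463 ± 0.223). These 3 gates overlapped one another and lay above cDC2 (0.136 ± 0.0200) and monocytes (0.127 ± 0.0182), neither of which passed 0.151 in any tumor. Neutrophils held 45% ± 9.18 of the gated Hbegf UMIs and the stromal or tumor gate 24.5% ± 7.68.

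Areg was the 1 gene of the set led by T cells. It stood at 0.691, 0.877, 1.09 and 0.480 in the T unresolved gate (0.786 ± 0.262) and at 0.710, 0.785, 1.02 and 0.598 in Tregs (0.779 ± 0.181). The 2 gates did not differ beyond their spread, and the order of their means reversed when cells were assigned by stricter gates (0.810 and 0.818) or cells were weighted alike. Mature DCs followed at 0.371, 0.265, 0.369 and 0.182 (0.297 ± 0.0909), below both T cell gates in every tumor, and CD8 T cells stood at 0.0305 ± 0.0124. Areg was found in 15.2% of Tregs and 0.7% of CD8 T cells, or 8.95% and 0.397% after thinning to 1500 UMIs, with median depths of 3512 and 4775 UMIs. In Arg1 macrophages the mean of 0.402 rested on few cells, since 1 cell held 38.8% of the 85 UMIs and the tumors stood at 0.222, 0.155, 1.23 and 0.

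Osm was highest in neutrophils. They stood at 5.94, 13, 8.34 and 14.2 (10.4 ± 3.89) and no other of the compared gates passed 1.33 in any tumor. Within each genotype the tumor of run 2 was the higher. Arg1 macrophages came next at 1.21, 1.12, 1.16 and 1.13 (1.16 ± 0.0416), then monocytes at 0.936 ± 0.286, mature DCs at 0.629 ± 0.0862 and C1q macrophages at 0.613 ± 0.226. Osm was found in 66.3% of neutrophils, at a median of 2107 UMIs per cell, and in 4.35% of pDCs, at a median of 4088 UMIs. After thinning to 1500 UMIs, which 4612 of 5974 neutrophils and all 460 pDCs reached, the shares were 57.0% and 0.435%. Neutrophil RNA free in the suspension, scaled by S100a8 and S100a9, would give a level equal to 4.13% of that of Arg1 macrophages, 5.76% of that of monocytes and 34.0% of that of pDCs.

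Inhba, the activin A chain, was highest in Arg1 macrophages, at 2.16, 3.59, 4.56 and 7.70 (4.50 ± 2.35). Neutrophils stood at 0.747, 1.48, 1.50 and 1.86 (1.39 ± 0.466), below Arg1 macrophages in every tumor and without overlap. Monocytes followed at 0.172, 0.483, 0.384 and 0.692 (0.433 ± 0.216) and C1q macrophages at 0.0952, 0.204, 0.218 and 0.509 (0.256 ± 0.177). The CD4 T gate had a mean of 0.804 that came from 53 UMIs in 3 of 217 cells, 33 of them in 1 cell. Inhba was found in 33.4% of Arg1 macrophages and 0.973% of NK cells, or 26.1% and 0.340% after thinning, with median depths of 3896 and 4017 UMIs.

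Tgfb1, which is made as a latent precursor, was found in every gate. Monocytes stood at 3.56, 3.82, 3.26 and 4.11 (3.69 ± 0.366), C1q macrophages at 3.01, 3.38, 3.24 and 3.89 (3.38 ± 0.372) and Arg1 macrophages at 2.01, 3.05, 2.64 and 2.37 (2.52 ± 0.439). The first 2 of these overlapped, as did the last 2. Tregs had the highest lymphocyte mean, 2.05 ± 0.221, neutrophils stood at 1.77 ± 0.289, and mature DCs were lowest, between 0.610 and 0.803, below every value of every other gate.

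Igf1 was rare, with 155 UMIs in all kept cells. C1q macrophages held 59 of them, in 28 of 1055 cells, with levels of 0.0603, 0.194, 0.0136 and 0.0221 (0.0725 ± 0.0835). The last 2 of these levels rest on 1 UMI each. Arg1 macrophages had 13 UMIs and a mean of 0.0422 ± 0.0375, and the stromal or tumor gate 25 UMIs, 16 of them in 1 cell. With cells weighted alike the stromal or tumor gate had the highest mean, 0.172, against 0.0547 in C1q macrophages. No Igf1 UMI was found in the CD8 T, Treg, CD4 T, NK and cDC1 gates.

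**Figure D2:**
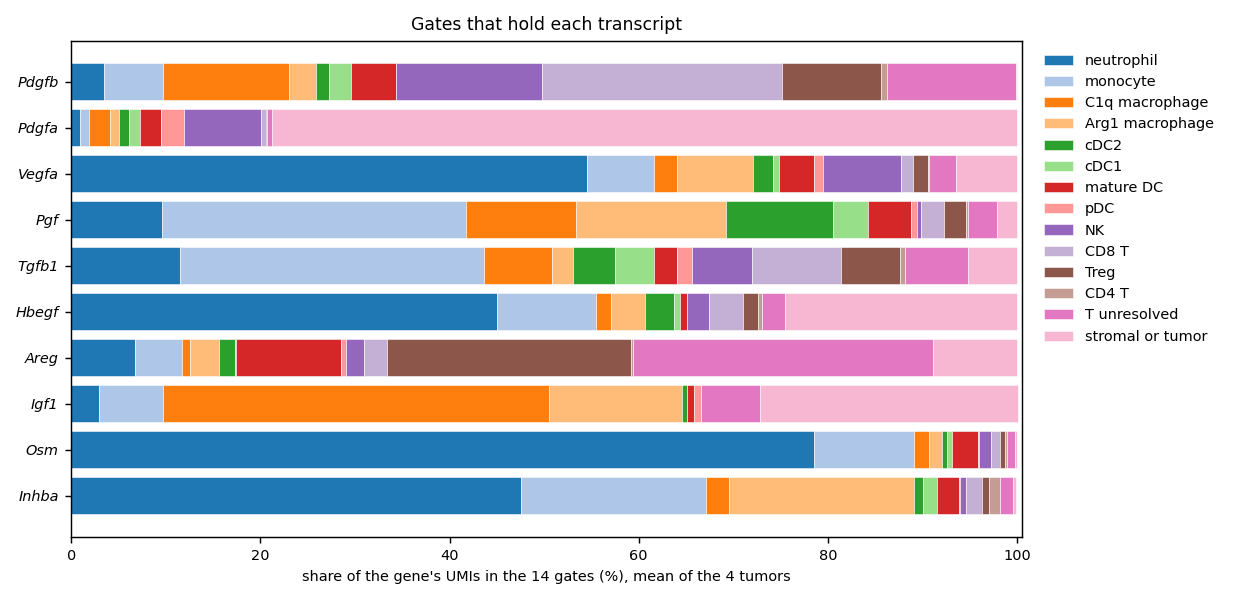
Share of each gene's gated UMIs (percent, mean of the 4 tumors) in each of the 14 gates, colored by gate. Neutrophils hold 78.5% of Osm and 54.5% of Vegfa, the stromal or tumor gate 78.8% of Pdgfa, and the T unresolved and Treg gates 31.7% and 25.8% of Areg.

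Counted over all gated cells, neutrophils held 78.5% ± 5.07 (SD, n = 4) of the Osm UMIs, 54.5% ± 6.87 of the Vegfa UMIs and 47.5% ± 13.3 of the Inhba UMIs. Inhba was thus highest per UMI in the 470 Arg1 macrophages, which held 19.5% ± 3.54 of its UMIs, while the 5974 neutrophils held the larger share. Monocytes held the largest share of Pgf, 32.1% ± 5.56, and of Tgfb1, 32.1% ± 3.50.

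The gates were then compared by edgeR's quasi-likelihood test on UMIs summed per gate and tumor, with the tumor as a block and Benjamini-Hochberg adjustment over 12045 genes. A gene is said to have risen or fallen where the adjusted p was under 0.05. Whether the gates differ in many genes decides how such counts are read, so the share of all genes called is given beside each. The fold changes use TMM factors, which lay between 0.456 and 0.567 in neutrophils, so that neutrophil fold changes are larger than the ratios of the levels per 10000 UMIs. With library sizes alone, a setting chosen after seeing the data, the median of all genes was -0.83 (log2) between neutrophils and monocytes in place of 0.05, and 80.6% in place of 43.8% of the calls were lower in neutrophils. The same medians were 0.18 and 0.02 between C1q macrophages and monocytes, with 32.1% and 53.3% of calls lower, -0.15 and -0.07 between Arg1 and C1q macrophages, with 54.9% and 44.3% lower, -0.28 and 0.00 between mature DCs and cDC2, with 67.3% and 49.0% lower, and -0.45 and 0.00 between myeloid and lymphoid gates, with 68.9% and 49.6% lower.

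Between neutrophils and monocytes, 5 of the 10 genes rose in neutrophils and 0 fell, where 56.8% of all genes were called, 31.9% higher and 24.9% lower. The median log2 difference of the 10 genes was 1.74, against 0.05 over all genes. Osm rose by 4.41 ± 0.19 (log2 fold change ± SE, 21.3-fold, adjusted p = 2e-27) and Vegfa by 4.39 ± 0.20 (20.9-fold, adjusted p = 4.2e-26). Hbegf rose by 3.55 ± 0.22, Inhba by 2.70 ± 0.27 and Areg by 1.82 ± 0.38, with adjusted p of 8.46e-21, 1.1e-12 and 5.23e-05. All 5 were higher in neutrophils in each of the 4 tumors. With library sizes alone the differences were 3.45, 3.46, 2.60, 1.77 and 0.91 in the same order, and all 5 were still called. Without Scrublet doublets Vegfa stood at 5.36, Hbegf at 4.21, Inhba at 3.40 and Areg at 2.50, and with stricter gates Areg stood at 3.10. Tgfb1 (-0.13 ± 0.10, adjusted p = 0.26) and Pgf (-0.43 ± 0.26, adjusted p = 0.15) were not called, but were called lower in neutrophils with library sizes alone, at -1.07 and -1.32. Both were also called with no filter on low counts (-0.28 and -0.56), Tgfb1 with stricter gates (-0.29) and when the run 2 Csf1r fl/fl tumor was left out (-0.35), and Pgf without Scrublet doublets (-2.58). Pdgfa was not called, except with stricter gates (2.44). Pdgfb was not called either, and its sign turned with the scaling, from 0.47 to -0.41.

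Between C1q macrophages and monocytes, 3 genes rose and 4 fell, where 30.2% of all genes were called, 14.1% higher and 16.1% lower. Pdgfb rose by 2.85 ± 0.26 (7.21-fold, adjusted p = 3.63e-13) and Pdgfa by 2.62 ± 0.55 (adjusted p = 0.000163, on 26 UMIs in C1q macrophages). Igf1 rose (adjusted p = 5.11e-08), with 2 UMIs in monocytes and 59 in C1q macrophages, or mean levels of 0.000919 and 0.0725. These 3 were higher in C1q macrophages in all 4 tumors. Inhba fell by 1.13 ± 0.38, Hbegf by 1.03 ± 0.37, Osm by 0.84 ± 0.21 and Tgfb1 by 0.32 ± 0.10 on the log2 scale, with adjusted p of 0.0177, 0.0291, 0.00128 and 0.0143, and were lower in all 4 tumors but for Osm, which was higher in 1. When the run 2 Csf1r fl/fl tumor was left out, Inhba (-0.98), Osm (-0.65) and Tgfb1 (-0.31) were no longer called, which left 4 of the 7. Tgfb1 also lost the call with size factors of DESeq2 (-0.24), with library sizes alone (-0.14) and without the tumor as a block (-0.31), and Inhba by DESeq2 (-0.88) and without the block (-1.25). Hbegf was not called without either tumor of run 1, Csf1r fl/fl (-0.91) or Lyve1Cre Csf1r fl/fl (-0.82). Stricter gates gave 3.86 for Pdgfb, 4.54 for Pdgfa, -2.02 for Hbegf and -1.80 for Osm, and Pdgfa stood at 3.66 when the run 1 Csf1r fl/fl tumor was left out.

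Between Arg1 and C1q macrophages, 6 genes rose in Arg1 macrophages and 1 fell, where 16.3% of all genes were called, 9.06% higher and 7.21% lower. The median of the 10 genes was 1.47, against -0.07 over all genes. Inhba rose by 4.44 ± 0.36 (21.6-fold, adjusted p = 2.32e-14), Vegfa by 3.13 ± 0.28 (8.78-fold, adjusted p = 4.09e-13) and Hbegf by 2.65 ± 0.41 (adjusted p = 1.84e-06). Pgf rose by 1.84 ± 0.27 (adjusted p = 3.49e-07) and Osm by 1.10 ± 0.24 (adjusted p = 0.00058). These 5 were higher in Arg1 macrophages in all 4 tumors. Areg rose by 3.72 ± 0.60 (adjusted p = 3.63e-06), but in 3 of 4 tumors, and by 2.42 without the Lyve1Cre Csf1r fl/fl tumor of run 1. Tgfb1 fell by 0.31 ± 0.11 with an adjusted p of 0.0495, and lost this call in 10 of the 13 other settings tried, and stood at -0.60 with stricter gates. Pdgfb, at -0.70 ± 0.31, was not called (adjusted p = 0.116), but was called with no filter on low counts (-0.72) and without Scrublet doublets (-0.86). With stricter gates Inhba stood at 5.53, Areg at 4.96, Vegfa at 4.67, Hbegf at 3.73 and Osm at 1.74.

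**Figure D3:**
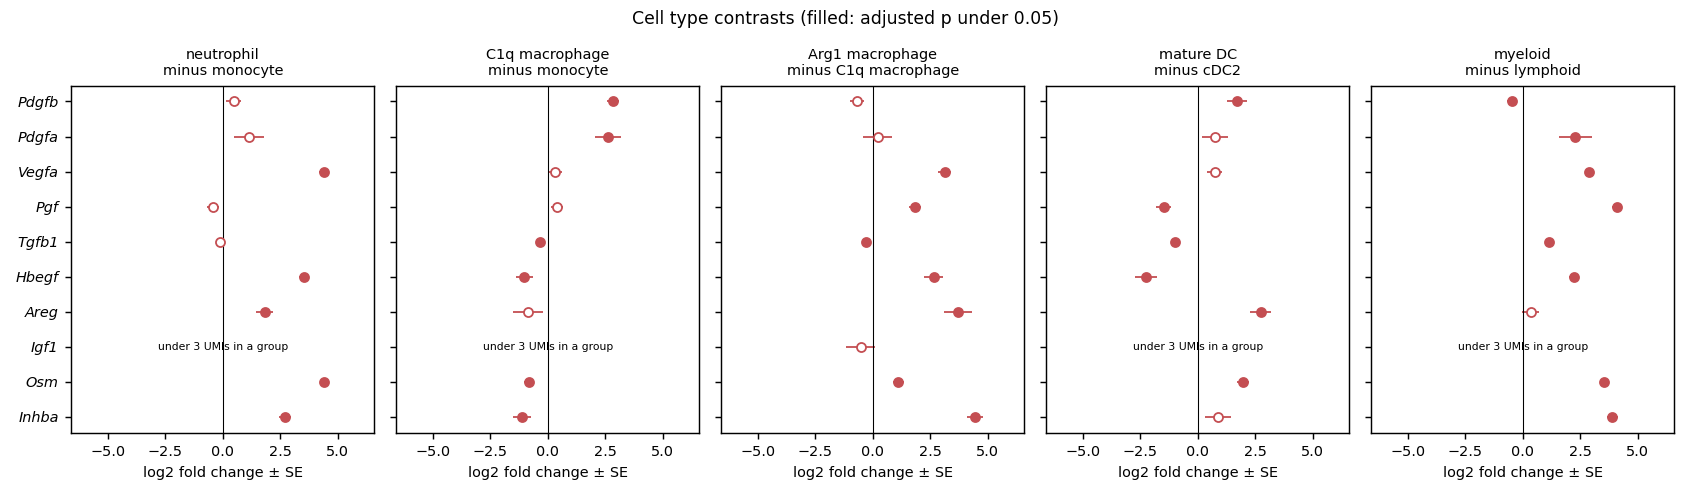
Log2 fold change (points) and its standard error (bars) of the 10 genes in the 5 comparisons between gates, filled where the adjusted p was under 0.05. Inhba, Vegfa, Hbegf, Areg, Pgf and Osm lie to the right in Arg1 against C1q macrophages, and Igf1 is left out where a group had under 3 UMIs.

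Mature DCs, which carry Ccr7 and migrate to lymph nodes, were set against cDC2. Here 3 of the 10 genes rose and 3 fell, where 49.2% of all genes were called, 25.1% higher and 24.1% lower. Areg rose by 2.73 ± 0.45 (adjusted p = 6.84e-07), Osm by 1.97 ± 0.25 (adjusted p = 1.57e-09) and Pdgfb by 1.70 ± 0.42 (adjusted p = 0.000527). Hbegf fell by 2.26 ± 0.49, Pgf by 1.48 ± 0.33 and Tgfb1 by 1.0 ± 0.11, with adjusted p of 9.08e-05, 0.000158 and 6.64e-11. All 6 had the same direction in all 4 tumors. With stricter gates Areg stood at 4.32, Hbegf at -3.41 and Pgf at -2.76, and without Scrublet doublets Hbegf at -3.70 and Pgf at -2.59. Vegfa, at 0.73 ± 0.33 and higher in mature DCs in all 4 tumors, was not called (adjusted p = 0.0613), but was called with no filter on low counts (0.7), without the Lyve1Cre Csf1r fl/fl tumor of run 2 (0.79) and without Scrublet doublets (0.82). Inhba, at 0.89 ± 0.56, was not called (adjusted p = 0.189). It was called without Scrublet doublets, at 3.01, with no filter on low counts, at 0.86, with stricter gates, at 1.60, and when the run 2 Csf1r fl/fl tumor was left out, at 1.72, and in cDC2 5 cells held 86.0% of its 50 UMIs.

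Between the mean of the 4 myeloid gates (neutrophils, monocytes, C1q and Arg1 macrophages) and the mean of the 4 lymphoid gates (CD8 T, Treg, CD4 T and NK), 8 genes rose and 1 fell, where 70.5% of all genes were called, 35.5% higher and 35.0% lower. Pgf rose by 4.10 ± 0.23, Inhba by 3.89 ± 0.24, Osm by 3.54 ± 0.13, Vegfa by 2.89 ± 0.20, Hbegf by 2.22 ± 0.23 and Tgfb1 by 1.15 ± 0.06, each higher in the myeloid gates in all 4 tumors, with the largest of the adjusted p at 5.23e-13. Igf1 had 77 UMIs in the myeloid gates and 0 in the lymphoid gates, which makes it at least 18.5-fold higher per UMI against a floor of 3 counts over the lymphoid gates; it was called, but not with stricter gates. Pdgfa was called (2.29 ± 0.73, adjusted p = 0.00492) but its mean levels were 0.0267 and 0.025 and 2 of 4 tumors were higher in the myeloid gates, where the fit averages log values over gates and NK cells held 91 of the 98 lymphoid UMIs. Leaving out the run 1 Csf1r fl/fl tumor ended the call, at 1.81, and DESeq2 gave 1.4. Pdgfb was the gene that fell, by 0.49 ± 0.20 (adjusted p = 0.0255), and was not called without 1 of 3 tumors (both of run 2 and the Lyve1Cre Csf1r fl/fl tumor of run 1), at -0.35 to -0.40, or with stricter gates, at -0.46. It stood at -0.94 with library sizes alone, -0.83 when the run 1 Csf1r fl/fl tumor was left out and -0.74 without Scrublet doublets, and Tgfb1 stood at 0.7 with library sizes alone. Vegfa stood at 4.18 without the Lyve1Cre Csf1r fl/fl tumor of run 2, and without Scrublet doublets Inhba stood at 5.45, Pgf at 5.27, Osm at 4.14 and Vegfa at 3.74. Areg did not differ by the test (0.35 ± 0.37, adjusted p = 0.403) and its sign turned with library sizes alone, to -0.10. Its mean levels were 0.138 in the myeloid and 0.232 in the lymphoid gates, and 1 of 4 tumors was higher in the myeloid gates. The T unresolved gate, where the mean of Areg was highest, is in neither group.

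Lists of partner genes were counted in the same comparisons, beside the shares of all genes that rose or fell. Of 15 genes of the hypoxia response, 14 were tested, and 13 rose in Arg1 against C1q macrophages with a median of 2.37, where 9.06% of all genes rose. The largest rises were of Egln3, an oxygen-sensing hydroxylase, by 3.84 ± 0.32 and of Ero1l, an oxidase of the endoplasmic reticulum, by 3.03 ± 0.21. In neutrophils against monocytes 11 of the 14 rose with a median of 1.59, where 31.9% of all genes rose, led by Egln3 at 5.01 ± 0.21 and Hilpda, a lipid droplet protein, at 4.62 ± 0.25. Between C1q macrophages and monocytes, by contrast, 1 of the 14 rose and 4 fell, where 14.1% of all genes rose and 16.1% fell, and between mature DCs and cDC2 4 rose and 5 fell, where 25.1% and 24.1% did.

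Among the 8 tested receptors and other ligands of the PDGF and VEGF families, Nrp2, a coreceptor of VEGF-C, rose in C1q macrophages against monocytes (1.46 ± 0.27), again in Arg1 against C1q macrophages (1.48 ± 0.28) and in mature DCs against cDC2 (2.79 ± 0.30). Flt1, the receptor of Pgf and Vegfa, fell in neutrophils (-1.69 ± 0.34) and in C1q macrophages (-1.25 ± 0.34) against monocytes. Of this list 0 genes rose and 4 fell in neutrophils against monocytes, 4 rose and 1 fell in C1q macrophages against monocytes, and 1 rose and 0 fell in Arg1 against C1q macrophages, where 31.9% of all genes rose and 24.9% fell, 14.1% rose and 16.1% fell, and 9.06% rose and 7.21% fell. In mature DCs against cDC2 1 rose and 3 fell, where 25.1% rose and 24.1% fell.

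The TGF-beta and activin list, of which 21 genes were tested, held Thbs1, an activator of latent TGF-beta, which rose by 3.12 ± 0.26 in neutrophils and fell by 2.11 ± 0.29 in C1q macrophages against monocytes and rose by 3.63 ± 0.31 in Arg1 against C1q macrophages. The receptors Tgfbr1 and Tgfbr2 rose in C1q macrophages against monocytes, by 1.34 ± 0.16 and 1.22 ± 0.16. Between myeloid and lymphoid gates Thbs1 rose by 4.57 ± 0.18 and Acvrl1, a receptor of the family, by 3.75 ± 0.16, while Itgb8, an integrin chain that activates latent TGF-beta, fell by 3.86 ± 0.60 on the log2 scale. In the list as a whole 9 genes rose and 3 fell in neutrophils, 4 rose and 2 fell in C1q macrophages, and 4 rose and 4 fell in Arg1 macrophages, in the comparisons just named, with the same shares of all genes as for the list before. In mature DCs against cDC2 4 rose and 4 fell.

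The other lists were counted against the same shares of all genes. Of the 10 tested genes of the EGF family and its shedding enzymes, 5 rose and 2 fell in neutrophils against monocytes, 1 rose and 2 fell in C1q macrophages against monocytes, 1 rose and 0 fell in Arg1 against C1q macrophages, and 3 rose and 1 fell in mature DCs against cDC2. Nrg1 rose by 5.23 ± 0.36 and Egf by 3.50 ± 0.35 in mature DCs, where Areg also rose and Hbegf fell, while Nrg1 fell by 0.95 ± 0.23 in neutrophils and by 1.84 ± 0.29 in C1q macrophages. It rose by 1.28 ± 0.41 in Arg1 against C1q macrophages and by 3.29 ± 0.26 in myeloid against lymphoid gates. Ereg rose in neutrophils (adjusted p = 1.55e-08), with 68 UMIs and 1 UMI.

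Of the 6 tested genes of the IGF axis, 4 rose and 0 fell in neutrophils, 1 rose and 1 fell in C1q macrophages, 3 rose and 0 fell in Arg1 macrophages and 1 rose and 1 fell in mature DCs, in the same comparisons. Igf1r, the receptor of IGF-1, rose in neutrophils by 5.54 ± 0.23 (1.51 against 0.0604 UMIs per 10000). Of the 7 tested genes of the IL-6 family, 2 rose and 3 fell in neutrophils, 0 rose and 2 fell in C1q macrophages, 2 rose and 0 fell in Arg1 macrophages and 3 rose and 2 fell in mature DCs. Il6 rose by 4.07 ± 0.37 in mature DCs, where Osm also rose, and the receptor genes Lifr and Il6ra fell there by 4.87 ± 0.40 and 2.21 ± 0.25. Il6 also rose by 2.27 ± 0.45 in Arg1 against C1q macrophages, where Osm rose, and by 3.16 ± 0.36 in myeloid against lymphoid gates, where Osm rose, and fell by 1.56 ± 0.37 in C1q macrophages against monocytes, where Osm fell. In neutrophils Il6 fell by 1.89 ± 0.35, where Osm rose, and Socs3, a feedback inhibitor of gp130 signaling, rose by 2.88 ± 0.17.

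Of the 9 tested genes among other angiogenic factors, 4 rose and 2 fell in neutrophils, 6 rose and 0 fell in C1q macrophages, 3 rose and 1 fell in Arg1 macrophages and 3 rose and 3 fell in mature DCs. Adm rose in Arg1 against C1q macrophages (adjusted p = 9.05e-05), with 25 and 2 UMIs, and Grn, which encodes progranulin, fell by 0.60 ± 0.13. Angpt2 and Angptl4 rose in C1q macrophages against monocytes by 2.25 ± 0.50 and 2.63 ± 0.54.

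Between myeloid and lymphoid gates, where 35.5% of all genes rose and 35.0% fell, 13 of the 14 tested genes of the hypoxia response rose and 0 fell. There 4 rose and 1 fell of the 8 of the PDGF and VEGF families, 11 rose and 4 fell of the 21 of the TGF-beta and activin list, and 4 rose and 0 fell of the 10 of the EGF family. Of the IGF axis 4 of 6 rose and 2 fell, of the IL-6 family 5 of 7 rose and 0 fell, and of the other angiogenic factors 7 of 9 rose and 0 fell.

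How alike the 10 genes are in their distribution was described by Pearson's r of log2(CPM + 1) over the 56 sums of a gate and a tumor. These points share tumors, runs and depth, so r is a description. Osm and Inhba had the highest r of a pair, 0.73, followed by Pgf and Inhba (0.66), Vegfa and Hbegf (0.59) and Vegfa and Osm (0.56). Pdgfb and Pdgfa had the lowest, -0.40, and Areg did not pass 0.18 with any other gene.

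**Figure D4:**
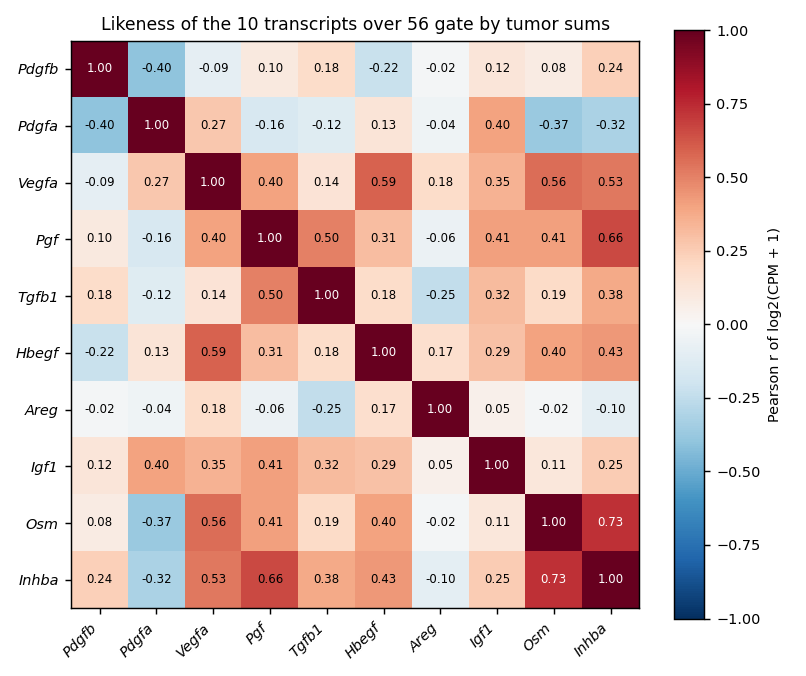
Pearson's r of log2(CPM + 1) between each pair of the 10 genes over 56 sums of a gate and a tumor, from blue (negative) to red (positive). Osm, Inhba, Vegfa, Hbegf and Pgf are positive with one another, from 0.31 to 0.73, and Areg stays between -0.25 and 0.18.

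Over all 12061 genes with at least 200 UMIs, the genes most like each factor were also named. Osm was most like Mcl1 (0.93), Ptgs2 and Arg2, and Ptgs2, the prostaglandin synthase COX-2, stood at 21.9 UMIs per 10000 in neutrophils and 4.0 in Arg1 macrophages. Inhba was most like Il1rn and Thbs1, at 10.7 and 6.71 in Arg1 macrophages and 22.8 and 10.2 in neutrophils. Hbegf was most like Il1rap (0.83), Tnfaip6 and the glucose transporter Slc2a1, and Vegfa was most like Klf7 (0.78). Areg was most like Lrrc32 (0.65), which anchors latent TGF-beta on Tregs and stood at 0.191 in Tregs and 0.139 in the T unresolved gate. Pgf was most like the mannose receptor Mrc1 (0.84), Tgfb1 like Rnpep (0.88), Igf1 like Gas6 (0.78), Pdgfa like Tjp1 (0.88) and Pdgfb like Rasgrp1 (0.79).

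The study's design sets tumors of Lyve1Cre Csf1r fl/fl mice against those of Csf1r fl/fl mice, and for the 10 genes this was tested within each gate with n = 2 tumors per genotype. Of 140 pairs of a gene and a gate, 85 passed the filter on low counts. By edgeR, 0 of the 85 were called, 0 were called by DESeq2, and 5 (5.88%) had an unadjusted p under 0.05; over all genes 7 of 113956 tests, 0.00614%, were called, and 2108 (1.85%) had an unadjusted p under 0.05. The lowest adjusted p of the 85 was 0.997. With the Chromium run as a block, 189 tests over all genes, 0.166%, were called, again 0 of the 85, whose lowest adjusted p was 0.0623 and of which 14 (16.5%) had an unadjusted p under 0.05, against 5424 (4.76%) of the tests over all genes. Inhba recurs among the 14, in neutrophils, monocytes, C1q and Arg1 macrophages, Tregs and CD4 T cells, not all in 1 direction. Among the 5 without the block it recurs in C1q and Arg1 macrophages and Tregs. Gates of a gene share the same tumors, so these shares do not count independent results. The 2 genotypes did not overlap in 22.4% of the 85 and in 21.8% of the tests of all genes.

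**Figure D5:**
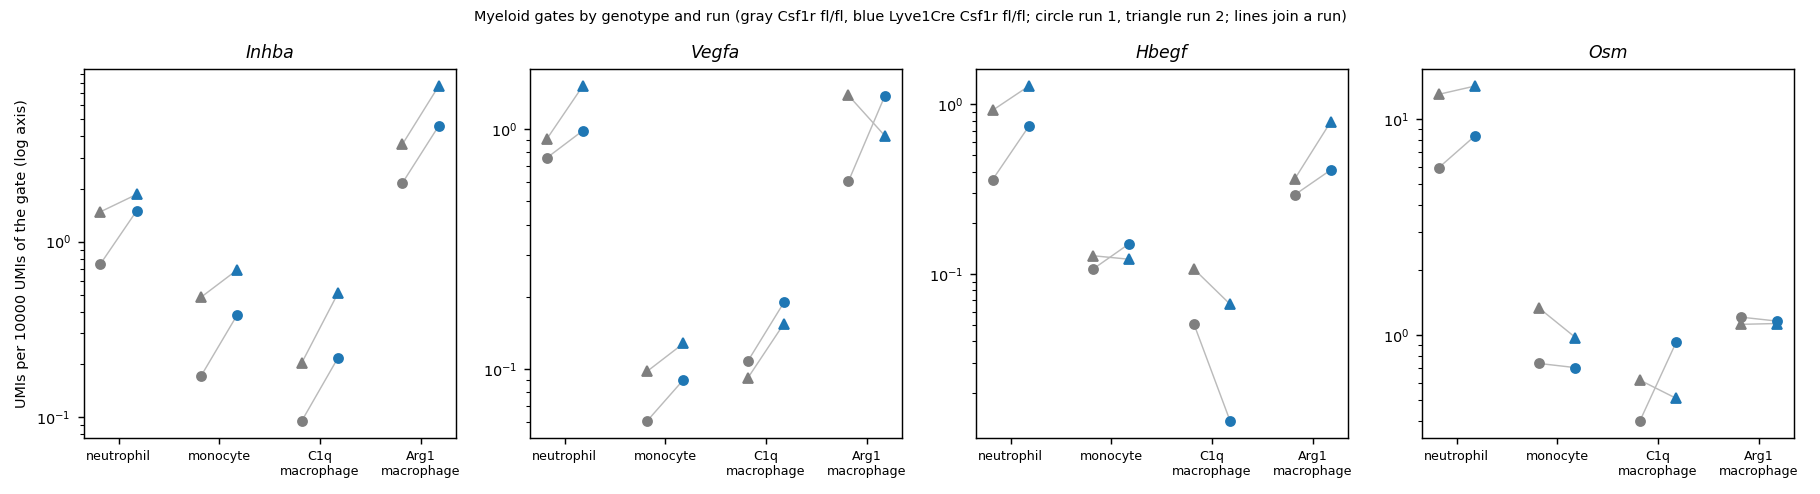
Levels (UMIs per 10000 UMIs of the gate, log axis) of Inhba, Vegfa, Hbegf and Osm in 4 myeloid gates. Gray is Csf1r fl/fl and blue Lyve1Cre Csf1r fl/fl, circles run 1 and triangles run 2, and lines join the tumors of a run; the lines of Inhba rise in all 4 gates and none of these differences passed the adjusted threshold.

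Among the differences that did not pass the test, those of Inhba had the same direction in both runs in the 4 myeloid gates. In Arg1 macrophages Inhba stood at 2.16 and 3.59 in Csf1r fl/fl and 4.56 and 7.70 in Lyve1Cre Csf1r fl/fl tumors, without overlap, with a log2 difference of 1.13 ± 0.35 and within-run values of 1.08 and 1.10 (adjusted p = 1.0 by edgeR with and without the run as a block). In C1q macrophages the difference was 1.24 ± 0.44, with within-run values of 1.19 and 1.32 (adjusted p = 0.999, and 0.0623 with the run as a block). Neutrophils gave 0.69 ± 0.40 and monocytes 0.72 ± 0.38, with adjusted p of 1.0 in both and of 0.192 and 0.399 with the block. These gates were chosen after their values were seen. In Tregs Inhba was lower in Lyve1Cre Csf1r fl/fl tumors, at -1.86 ± 0.58 on 34 UMIs, and so were, too rare to be tested, its means in cDC1 (0.148 in Csf1r fl/fl and 0.0458 in Lyve1Cre Csf1r fl/fl, on 81 UMIs), cDC2 (0.104 and 0.0271, on 50 UMIs) and the stromal or tumor gate (0.0346 and 0.00262, on 13 UMIs). The genotypes did not overlap in cDC1 or the stromal or tumor gate, whereas in cDC2 both tumors of run 1 stood at 0.0543. The mean of Inhba was also lower in CD4 T cells, at 1.26 in Csf1r fl/fl and 0.345 in Lyve1Cre Csf1r fl/fl tumors. Its difference there was -1.34 ± 1.27 (adjusted p = 0.997 by edgeR), with overlap, on 53 UMIs in 3 cells. Over all kept cells its within-run values were 0.99 and -0.07. The call in monocytes was gained, at 1.54, when the run 2 Csf1r fl/fl tumor was left out.

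For the other genes the gate of their highest level is given. Vegfa in Arg1 macrophages had within-run values of 1.17 and -0.56, of opposite sign. In neutrophils it stood at 0.757 and 0.905 against 0.984 and 1.51, without overlap, and was not called (0.68 ± 0.34, adjusted p = 1.0, and 0.207 with the run as a block). Osm in neutrophils differed by 0.34 ± 0.47 and Hbegf in neutrophils by 0.74 ± 0.47, both with an adjusted p of 1.0. With the run as a block Osm stood at 0.43 ± 0.24 and Hbegf at 0.88 ± 0.21, with adjusted p of 0.66 and 0.104 by edgeR. Tgfb1 in monocytes differed by -0.01 ± 0.22, Pgf in Arg1 macrophages by 0.33 ± 0.35, Pdgfb in C1q macrophages by 0.02 ± 0.35, Areg in the T unresolved gate by 0.07 ± 0.35 and Pdgfa in the stromal or tumor gate by -0.25 ± 0.26. Igf1 in C1q macrophages, at 0.0603 and 0.194 against 0.0136 and 0.0221, was too rare to pass the filter. It had 19 and 38 against 1 and 1 UMIs there, the last 2 below the floor of 3 counts. Pdgfb in Arg1 macrophages, at 0.292 and 0.374 against 0.0683 and 0.0751, did not overlap between genotypes and was not called (-2.14 ± 0.59, adjusted p = 1.0). These values rest on 25 and 29 against 3 and 2 UMIs, the last 2 no higher than the floor of 3 counts, and 5 of the 470 cells held 47.5% of the 59 UMIs. Areg in Arg1 macrophages, at 0.222 and 0.155 against 1.23 and 0, overlapped between genotypes and was not called (1.91 ± 0.78, adjusted p = 1.0), but was called with no filter on low counts (1.87), when the run 1 Csf1r fl/fl tumor was left out (2.24) and without the Lyve1Cre Csf1r fl/fl tumor of run 2 (2.78), which had 0 UMIs. These gate values of Pdgfb and Areg were picked with their size known. Over all kept cells Igf1 differed by -1.64 ± 0.61 (adjusted p = 1.0), but was called with no filter on low counts (-1.67, adjusted p = 0.03 by edgeR) and without the Lyve1Cre Csf1r fl/fl tumor of run 2 (-3.11, adjusted p = 0.0141). At the same time the number of C1q macrophages, which held 38.1% of its UMIs, was also lower in the Lyve1Cre Csf1r fl/fl tumors, and their part in this was not tested.

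Whether the genotype difference of a gene varied between gates was tested by the interaction of gate and genotype over 12866 genes, of which 0, or 0.0%, were called by edgeR and 364 had an unadjusted p under 0.05. None of the 10 genes was called, and all had an adjusted p of 1.0. With no filter on low counts Inhba (adjusted p = 4.52e-14 by edgeR) and Areg (2.6e-06) were called, Inhba also when the run 1 Csf1r fl/fl tumor was left out (0.0138) and Osm when that of run 2 was (0.0217).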

How the data were processed

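Single-cell RNA and hashtag antibody counts of CD45+ leukocytes from 4 EO771 tumors in 2 Chromium runs (3′ v2 kit) were used. The authors aligned reads to mm10 with Cell Ranger 6.0.1 and deposited raw UMI counts, from which the levels and tests come. The authors also deposited corrected counts from SCTransform in Seurat, a normalized score used here only for the names of the kept cells. Hashtag counts, deposited raw, were scaled per hashtag and run by centered log ratio, and each cell went to the tumor of its higher hashtag. The authors kept singlets under 5% mitochondrial counts. In 2.55% of kept cells the higher hashtag count was under 3 times the other.

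Cells were gated by marker panels with a minimum scaled score of 0.15, and gates with at least 20 cells in each tumor were compared. Doublets were called with Scrublet (Scanpy 1.11.5, expected rate 0.2), and 21.3% and 12.8% of kept cells of the 2 runs were called; they stayed in. Counts were summed per gate and tumor and tested with edgeR 4.0.16 (R 4.3.3), quasi-likelihood, TMM, with the tumor as a block between gates; DESeq2 1.42.0 was an alternative. Genotypes were compared without a block. The SE of a log2 fold change was derived from the edgeR test, as its absolute value divided by the square root of the F statistic. It was not estimated by the fit itself. The run marks a shared batch: deviations of same-run tumors from their genotype means had r of 0.0 to 0.53 over the gates, over 0.1 in 13 of 14. The tests were tried on simulated data. Cells with a UMI were counted after thinning to 1500 UMIs, with cells below that depth left out. Tumors held 27686362 to 56715743 UMIs, and intervals and floors (3 counts) cover counting error only.

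The 10 genes, marker panels and 7 lists of 100 genes were chosen with earlier results of these data known. Named genes are the 10, Csf1r and Lyve1, of each list at most 2 genes called higher and 2 called lower in a comparison, by size of the log2 difference, and the 3 genes most like each of the 10. Alternatives were other normalization, filters, gates, hashtag rules, doublet removal, the run block and leaving out each tumor; library sizes alone were added after seeing the data. Columns of per-sample values not used numbered 0. Some loci are not reported here.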

Additional observations from a re-analysis of the deposited data

Results flagged for a closer look

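The values here come from cells outside the compared gates, in which a gene had more UMIs than the 3 that a count of 0 allows. These gates had under 20 cells in at least 1 tumor and entered no test. In the B gate, with 87 cells, Pdgfb stood at 0.126 UMIs per 10000, Vegfa at 0.110, Pgf at 0.0941 and Hbegf at 0.0628, each on 4 to 8 UMIs. Tgfb1 stood at 2.62 there, with 131 of its 167 UMIs in the Lyve1Cre Csf1r fl/fl tumor of run 2. Inhba stood at 0.863, with 49 of its 55 UMIs in that tumor, and Osm at 0.455, with 28 of its 29 UMIs in 1 tumor. In the gamma delta T gate, with 169 cells, Pdgfb stood at 0.223, Tgfb1 at 1.51, Hbegf at 0.0637, Osm at 0.271 and Inhba at 0.112. In the mast cell or basophil gate, with 7 cells, Tgfb1 stood at 2.23 on 4 UMIs and Osm at 14 on 25 UMIs, with an exact Poisson 95% interval of 9.04 to 20.6. These Osm UMIs came from the run 2 tumors, 9 from Csf1r fl/fl and 16 from Lyve1Cre Csf1r fl/fl, with 0 in both tumors of run 1. The interval takes no account of the spread between the 7 cells.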

How the results depend on the processing

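Of 650 values of single genes between gates under another setting, 595 kept their direction and side of the threshold, 26 lost the call, 17 gained it and 12 turned their sign, none of them called. These were Pdgfb in neutrophils against monocytes (-0.41) and Areg in myeloid against lymphoid gates (-0.10) with library sizes alone, Igf1 in neutrophils (-0.73) and Vegfa in C1q macrophages (-0.46) against monocytes with stricter gates, Pdgfa in Arg1 against C1q macrophages (-0.02 without doublets, -0.32 to 0.70 when 1 tumor was left out), Igf1 there (-1.24 to 0.22 when 1 was left out) and Igf1 in mature DCs against cDC2 (-0.17 with library sizes alone, -0.09 without the tumor as a block, -0.19 by DESeq2, -1.94 to 2.16 when 1 was left out). Of 206 such values of the 16 named differences between genotypes, 187 kept both, 3 gained a call and 16 uncalled ones turned their sign or fell to 0. These were Pdgfb in C1q macrophages (-0.01 with no filter and with the run as a replicate block, -0.26 without doublets, -0.64 to 0.57 when 1 tumor was left out), Areg in the T unresolved gate (-0.02 with the block, -0.22 without doublets, -0.78 to 0.60), Vegfa in Arg1 macrophages (-0.15 to 0.96), Pgf there (-0.04 to 0.62), Tgfb1 in monocytes (-0.09 to 0.06) and Osm in neutrophils (-0.15 to 1.06), the last 4 when 1 was left out. Of 40 highest levels, 37 moved by less than 1 SD; Pdgfb in C1q macrophages was 0.734 and Vegfa in Arg1 macrophages 1.48 with stricter gates, and Vegfa there was 1.63 with cells weighted alike. Without Scrublet doublets Vegfa was higher in neutrophils (1.25) than in Arg1 macrophages (1.22), and with cells weighted alike Igf1 was highest in the stromal or tumor gate (0.172). The cause of these and the following changes was not tested. Leaving out 1 tumor gave 1184 to 1688 genes between Arg1 and C1q macrophages, in place of 1959, and 4 to 7 of the 10 genes between C1q macrophages and monocytes, in place of 7.

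Between genotypes, 7 calls over the gates became 31 with library sizes alone, 346 with no filter on low counts, 12 by DESeq2, 189 with the run as a replicate block and 3 without doublets, and 178 to 238 when 1 tumor was left out. Over all kept cells, 0 calls by edgeR became 79 with library sizes alone, 175 with no filter, 28 by DESeq2, and 0 to 133 when 1 tumor was left out. Among the 10 genes, 0 calls within gates became 1 with no filter and 0 to 2 when 1 tumor was left out, with Inhba in monocytes at 1.54 when the run 2 Csf1r fl/fl tumor was left out and Areg in Arg1 macrophages at 1.87 with no filter, 2.24 when the run 1 Csf1r fl/fl tumor was left out and 2.78 without the Lyve1Cre Csf1r fl/fl tumor of run 2; without that tumor Inhba was also called lower in CD4 T cells of Lyve1Cre Csf1r fl/fl mice (adjusted p = 0.0196 by edgeR), where the remaining tumor had 0 UMIs. Over all kept cells, 0 calls of the 10 became 1 with no filter and 0 to 1 when 1 tumor was left out, each time of Igf1. With 1 tumor left out, the remaining tumor of that genotype is assumed to vary like the others. For the interaction, 0 genes became 328 with no filter, 1 without doublets and 4 to 85 when 1 tumor was left out, and 0 of the 10 became 2 with no filter (Inhba and Areg) and 0 to 1 when 1 tumor was left out (Inhba or Osm). The run block changed no call of the 10 genes, while leaving out the tumor as a block ended those of Inhba (-1.25) and Tgfb1 (-0.31) in C1q macrophages against monocytes and of Tgfb1 (-0.32) in Arg1 against C1q macrophages. Of the 30 genes most alike, 18 were again among the 3 most alike with a pseudocount of 10 CPM.

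At these depths 85 of 140 pairs of a gene and a gate passed the filter on low counts. Igf1, with 155 UMIs in all, could be tested between genotypes in the stromal or tumor gate and over all kept cells.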
